A study of Mus musculus with 10 samples.

Results

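Replication-dependent histone genes were followed across 10 one-colour Agilent arrays of mouse bone marrow LSK cells. A gene was a member when the RefSeq accession of its probe belonged to a numbered symbol of the H2ac, H2bc, H3c or H4c series or to one of the linker histones H1f1 to H1f5. The RefSeq table (GRCm38.p6) holds 64 such genes, and 42 of them had a named probe, out of 20972 genes named on the array. These were 5 of 5 H1 genes, 12 of 19 H2A genes, 10 of 16 H2B genes, 7 of 12 H3 genes and 8 of 12 H4 genes. They were read by 47 probes, and the brighter probe stood for each of the 5 genes with several. Of the 42, 35 lie on chromosome 13 and 7 on chromosome 3. Another 7 genes carry a Hist name only as an older symbol and were left out, 4 of them with a probe.

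LSK cells, which lack lineage markers and carry Sca-1 and c-Kit, are a bone marrow gate of blood stem cells and early progenitors, here sorted for the donor marker CD45.2 after transplantation into C57BL/6 mice and tamoxifen. All groups carried Cre-Ert, a Cre recombinase that acts once tamoxifen is given. WT arrays had Cre-Ert alone, and KO arrays had Cre-Ert with Ezh2 fl/fl, so that tamoxifen deletes Ezh2, the methyltransferase of Polycomb repressive complex 2. Slide 1 held 1 WT and 1 KO array with the label 3 months. Slide 2 held 1 WT and 7 KO arrays labelled 9-12 months: 2 from mice with myelodysplastic syndrome (MDS), 3 with MDS and myeloproliferative neoplasm together (MDS/MPN), 1 with undetermined disease and 1 mixed sample of several diseases. The label of MDS/MPN replicate 3 adds CMMoL in brackets, which the labels of replicates 1 and 2 do not. The promoter that drives Cre, the cells the hosts kept and whether the WT, slide 1 KO and mixed arrays pool mice are not given in the sources used here.

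The deposited value table and the scanner files give these times differently: its 9-12 month columns of WT and mixed KO carry the slide 1 data, and its 3 month columns carry the slide 2 data. The 4 columns so exchanged matched those files with an SD of the log2 ratio of 0.000635 to 0.000768, and the genotypes were the same under both sets of labels. The times used here follow the scanner files, with the slide named beside each pair. All values are log2 signal over the 75th percentile of the array, called level below, or differences of such levels. The 75th percentile was 78.7 to 302 intensity units, 32.5% to 47.5% of probes were well above background, and no probe was saturated (0 of 55681). Of 12 LSK markers, 10, Kit, Ly6a and Cd34 among them, were well above background on all 10 arrays, while of 5 stromal and endothelial markers Cdh5 and Col1a1 were so on 0, Cxcl12 on 1, and Pecam1 and Lepr on all 10. The level of Ezh2 itself was 2.63 and 2.14 on the WT arrays of slides 2 and 1, 2.63 and 2.71 on the mixed and slide 1 KO arrays, with a lowest of 2.13 and a highest of 3.35 among the 6 single-mouse KO arrays. The sources used here do not place its probe inside or outside the deleted part, so these levels are no check of the labels.

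A dividing cell needs new histones for the DNA it copies, and the replication-dependent genes supply them in S phase. H2A, H2B, H3 and H4 form the core of the nucleosome and H1 binds the linker DNA between nucleosomes. Transcripts of these genes typically end in a stem-loop bound by SLBP instead of a poly(A) tail, and NPAT drives their transcription under cyclin E. Some members, H1f2, H2bc4 and H2bc21 among them, are also known as polyadenylated RNA in cells that have left the cycle. The labelling kit named in the labels (Low Input Quick Amp) is known to prime on poly(A) tails, so how the tailed and stem-loop forms share the signal matters here and was not tested. Members of a family are near-identical in sequence and the probe sequences are not used here, so the probes of related genes are not independent readings.

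The genes also share promoter letters, which the choice of members did not use. The 250 bases upstream of the RefSeq start are shown for 3 linker histone genes, since H1f2 went against the levels of H1f4 and H1f5, and for 1 H2B and 1 H4 gene as examples of the families that followed the latter. All are from RefSeq on GRCm38.p6, 5′ to 3′ on the strand of the gene. Capitals mark 4 motifs and their reverse complements: CCAAT (the CCAAT box), TATAAA (the TATA box), AAACACA (the H1 box) and ATTTGCAT (the octamer). The regions are chr13:23738557-23738806 on the plus strand for H1f2, chr13:23622559-23622808 on the minus strand for H1f4, chr13:21780626-21780875 on the minus strand for H1f5, chr13:23571150-23571399 on the plus strand for H2bc8 and chr13:23698459-23698708 on the minus strand for H4c3.
H1f2: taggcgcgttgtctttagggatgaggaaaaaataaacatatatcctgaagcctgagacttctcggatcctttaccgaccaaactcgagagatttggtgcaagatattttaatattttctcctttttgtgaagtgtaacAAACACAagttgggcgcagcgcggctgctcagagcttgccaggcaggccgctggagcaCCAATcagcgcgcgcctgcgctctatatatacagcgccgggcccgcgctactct
H1f4: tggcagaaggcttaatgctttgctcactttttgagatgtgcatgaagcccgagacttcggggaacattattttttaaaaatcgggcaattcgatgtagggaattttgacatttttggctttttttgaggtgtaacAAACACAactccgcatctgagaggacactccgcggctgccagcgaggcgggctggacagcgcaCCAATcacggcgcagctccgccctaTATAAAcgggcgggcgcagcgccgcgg
H1f5: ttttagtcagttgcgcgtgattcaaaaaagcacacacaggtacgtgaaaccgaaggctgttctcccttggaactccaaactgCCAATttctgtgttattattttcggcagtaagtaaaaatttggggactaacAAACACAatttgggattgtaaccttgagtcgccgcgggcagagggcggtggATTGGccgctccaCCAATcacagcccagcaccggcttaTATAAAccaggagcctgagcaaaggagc
H2bc8: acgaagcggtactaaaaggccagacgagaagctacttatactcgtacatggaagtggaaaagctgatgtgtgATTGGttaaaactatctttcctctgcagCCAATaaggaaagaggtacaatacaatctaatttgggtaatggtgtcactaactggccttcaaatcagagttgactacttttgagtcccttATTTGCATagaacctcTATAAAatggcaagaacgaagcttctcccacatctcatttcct
H4c3: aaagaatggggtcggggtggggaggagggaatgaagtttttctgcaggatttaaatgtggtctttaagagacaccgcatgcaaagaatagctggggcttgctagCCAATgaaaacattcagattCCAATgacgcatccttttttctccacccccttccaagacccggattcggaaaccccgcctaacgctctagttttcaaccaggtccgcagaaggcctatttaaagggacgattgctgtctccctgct

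Promoters of 38 of the 42 genes were in the table, H2bc4 and H2bc21 not among them. On either strand, CCAAT was in 33 of the 38 (86.8%), against 33.8% of 32851 promoters of the same length, and it was in each H1, H2A, H2B and H3 promoter but in 2 of 7 H4 promoters. TATAAA was in 21 (55.3%), against 12.4% of all. The octamer, known as a site of Oct-1 in H2B promoters, was in 6 of 9 H2B and 6 of 12 H2A promoters and in 0 of the H1, H3 and H4 promoters, against 1.60% of all. The H1 box was in 4 of 5 H1 promoters, H1f2 included, against 6.25% of all. H1f2 lacked the exact letters TATAAA, which H1f4 and H1f5 have downstream of CCAAT. At the matching place its printed sequence has a run in which thymine and adenine alternate, so a TATA box there is not excluded. H2bc14, H3c8 and H4c3, which shared the levels of H1f4 and H1f5, also lacked TATAAA. Its absence was thus not particular to H1f2 among all members. Within the H1 family it was, as 4 of the 5 H1 promoters had TATAAA and that of H1f2 did not. Whether this goes with the levels of H1f2 was not tested. Genes of the histone clusters often lie head to head, so these windows can overlap and are not independent.

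The members moved nearly as a block, and their levels set the WT array of slide 1 and MDS/MPN replicate 2 apart from the other 8 arrays. Well above background on all 10 arrays were 37 of the 42, and 40 entered the tests. The median level of the 37 was 6.28 on the WT array and 6.08 on the mixed KO array of slide 2, 5.16 on the WT array and 6.43 on the KO array of slide 1. It was 5.62 and 5.67 on the MDS arrays, 6.68, 4.82 and 6.96 on MDS/MPN replicates 1, 2 and 3, and 6.99 on the undetermined array. Over 14298 features the same median stayed between 2.06 and 2.37. Of the 37, 14 had their lowest level on the WT array of slide 1 and 20 on MDS/MPN replicate 2, 34 in all (91.9%), against 60.5% of all features (percent on either array). Array by array this was 37.8% and 54.1% of the 37, against 20.8% and 39.6% of all features. In bulk RNA, fewer cells in S phase and less histone RNA per cell cannot be told apart.

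The WT array of slide 1 was low under each scaling and with none, whereas MDS/MPN replicate 2 was low under each scaling and nearer to WT with none. Against the WT array of slide 2, the 37 genes had a median log2 difference on the WT array of slide 1 of -1.40 after scaling to the 75th percentile, -1.43 after quantile normalization and -1.75 with no scaling. For MDS/MPN replicate 2 these differences were -1.54, -0.89 and -0.21, where the median over all features was -0.33, -0.14 and 0.996. That array had a 75th percentile of 302 intensity units, the highest of the 10. With no scaling, the WT array of slide 1 held the lowest signal of 34 of the 37 genes, and MDS/MPN replicate 2 of 0. After quantile normalization the WT array of slide 1 was lowest for 30 of the 37 (81.1%), against 21.6% of all features. MDS/MPN replicate 2 was then lowest for 4 (10.8%), under its share of 28.2% of all features.

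**Figure D1:**
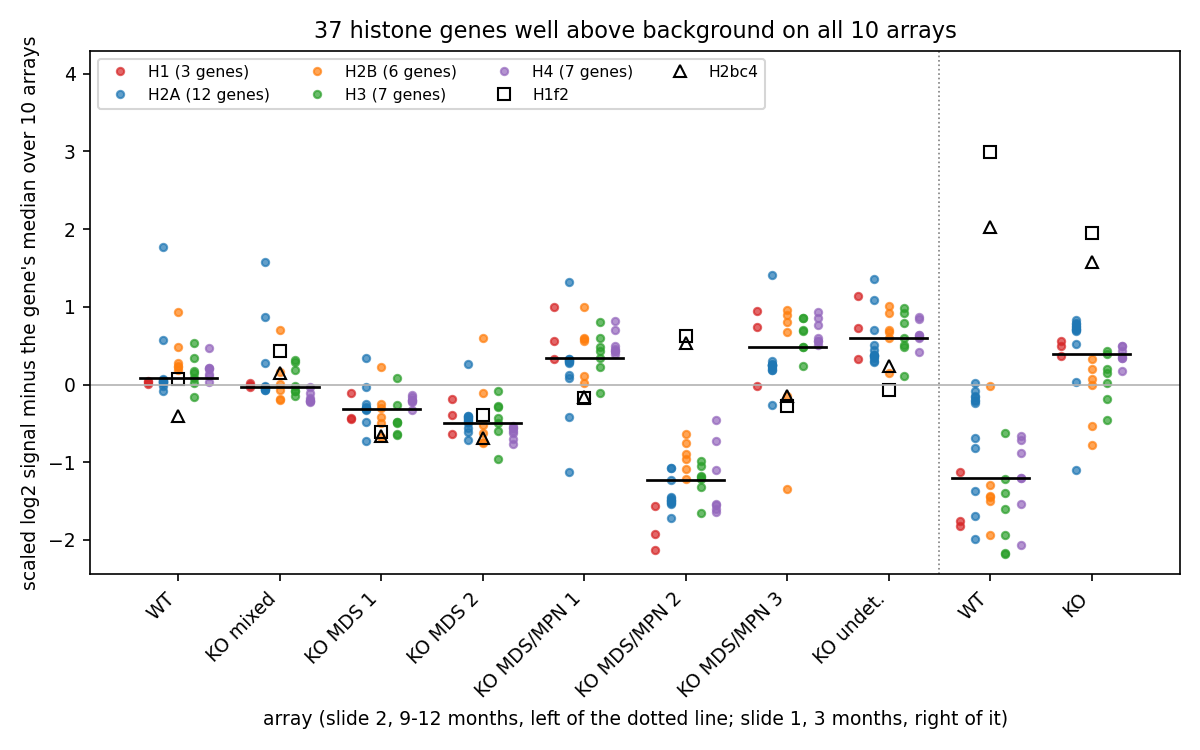
Level of each of 37 histone genes minus its own median over the 10 arrays (y axis, log2 after scaling to the 75th percentile), by array; points are genes coloured by family, black bars are the median of the 37, and open black symbols are H1f2 and H2bc4. The bars are lowest on MDS/MPN replicate 2 and the WT array of slide 1, where H1f2 and H2bc4 sit above their own medians.

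Among the linker histones, which compact the chromatin fibre, H1f1, H1f4 and H1f5 shared the block and H1f2 did not. H1f5 had log2 levels of 7.94 on the WT array and 7.88 on the mixed KO array of slide 2, and 6.08 and 8.48 on the WT and KO arrays of slide 1. Its levels were 7.48 and 7.27 on the MDS arrays, 8.47, 5.99 and 8.65 on MDS/MPN replicates 1, 2 and 3, and 8.64 on the undetermined array. The WT array of slide 1 and MDS/MPN replicate 2 were low, and the 6 KO arrays of single mice lay on both sides of the WT array of their slide. H1f4, a somatic linker histone, had levels of 8.29 (WT, slide 2), 8.29 (mixed KO), 7.16 (WT, slide 1) and 8.79 (KO, slide 1), and 6.73, 8.71 and 9.43 as the lowest, median and highest of the 6 KO arrays. H1f1, a linker histone of thymus, spleen and testis, had levels of 6.11, 6.08, 4.31 and 6.43 on the same 4 arrays and 3.94, 5.86 and 6.39 over the 6. In each of these genes the lowest of the 6 was MDS/MPN replicate 2.

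H1f2 ran the other way. Its log2 level was 5.13 on the WT array and 4.08 on the KO array of slide 1, and 2.21 on the WT array and 2.56 on the mixed KO array of slide 2. On the 6 KO arrays it was 1.52 and 1.74 (MDS), 1.95, 2.75 and 1.86 (MDS/MPN replicates 1, 2 and 3) and 2.05 (undetermined). Both slide 1 arrays thus lay above all 8 arrays of slide 2, and MDS/MPN replicate 2 was the highest of the 6. The WT array of slide 1 was 7.57-fold above the WT array of slide 2. H1f3 was well above background on 0 of 10 arrays.

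The 12 H2A genes were all well above background on all 10 arrays, and 7 of them had the brightest signals of the 37 genes. Unscaled, the probes of H2ac10, H2ac11, H2ac12, H2ac15, H2ac19, H2ac20 and H2ac22 read 278098 to 678714 intensity units. Their highest signals came to 57.5% to 87.1% of the saturation value in the file headers. From the dimmest to the brightest array each of these probes spanned 1.34-fold to 1.61-fold, whereas the 75th percentile spanned 3.84-fold. Their median SD over the 10 arrays was 0.18 on the log2 scale before scaling and 0.60 after it, so that most of the spread of their scaled levels is that of the 75th percentile. For all 14298 features the SD went from 0.58 to 0.48 with scaling. Whether these probes still read RNA in proportion at such signals was not tested.

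**Figure D2:**
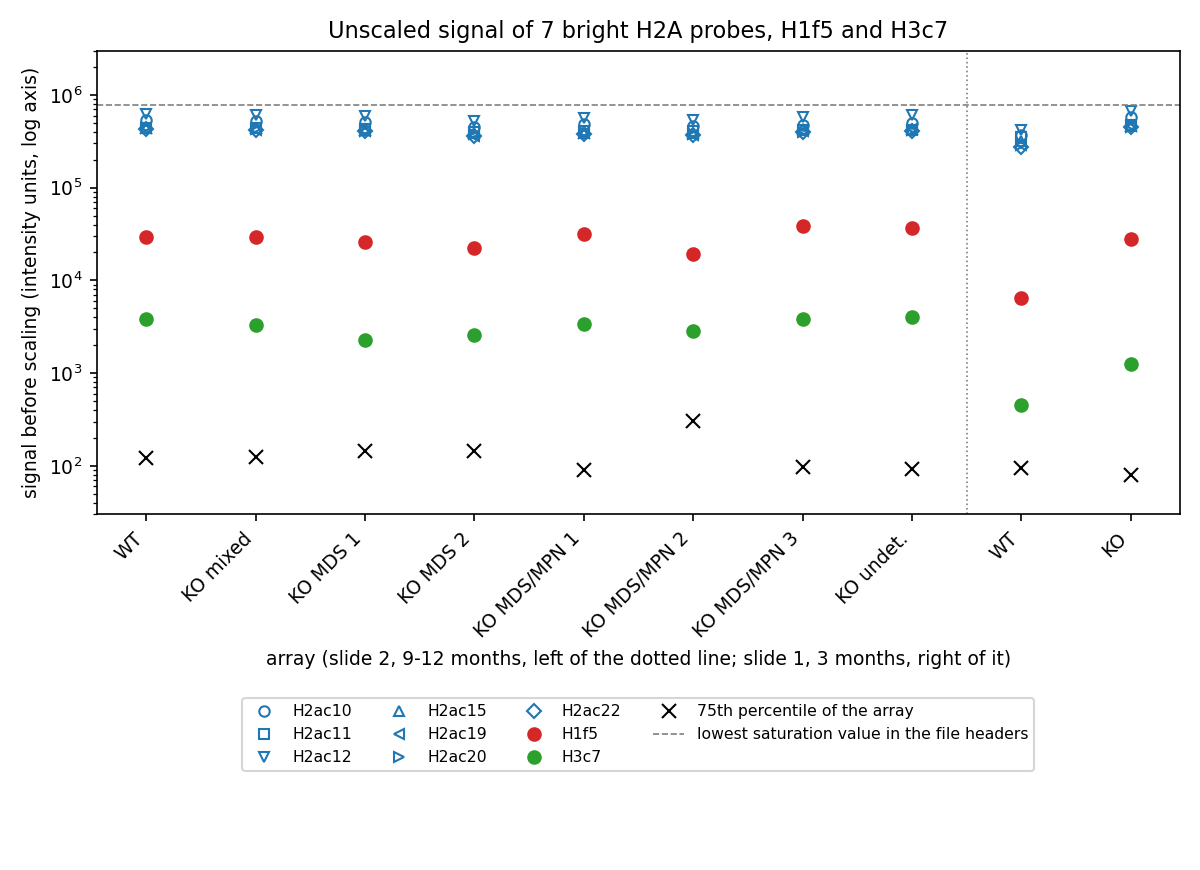
Signal before scaling (y axis, intensity units, log axis) of 7 bright H2A probes, H1f5 and H3c7, with the 75th percentile of each array (crosses) and the lowest saturation value (dashed line), by array. The H2A probes stay between 278098 and 678714, while the 75th percentile is highest on MDS/MPN replicate 2, at 302.

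The dimmer H2A genes varied more. H2ac6 (older name Hist1h2ac) had log2 levels of 1.45 on the WT array and 1.27 on the mixed KO array of slide 2, and -2.29 and -1.41 on the WT and KO arrays of slide 1. Its levels were 0.03 and -0.05 on the MDS arrays, -1.43, -1.39 and -0.57 on MDS/MPN replicates 1, 2 and 3, and 0.78 on the undetermined array. The WT array of slide 2 was above each of the 6 KO arrays, and each MDS array was above each MDS/MPN array. H2ac8 had levels of 0.90, 1.20, -1.37 and 0.35 on the WT and mixed KO arrays of slide 2 and the WT and KO arrays of slide 1, and -0.75, 0.10 and 1.02 as the lowest, median and highest of the 6. H2ac21 had levels of 1.57, 1.45, 0.13 and 2.30 on the same 4 arrays and -0.03, 2.05 and 2.91 over the 6, where both MDS arrays and MDS/MPN replicate 2 were low. H2ac1, the testis H2A gene, had levels of 0.76 to 2.82 over the 10 arrays, and H2ac4 of 8.88 to 11.13.

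Of the 10 H2B genes, 7 were well above background on all 10 arrays. H2bc14 had log2 levels of 7.86 and 7.44 on the WT and mixed KO arrays of slide 2, 6.20 and 7.85 on the WT and KO arrays of slide 1, and 6.68, 7.67 and 8.33 as the lowest, median and highest of the 6 KO arrays. H2bc3 had levels of 2.64, 2.16, 0.22 and 2.15 on the same 4 arrays and 1.51, 2.40 and 3.17 over the 6. The WT array of slide 1 was the lowest of the 10 for both. It was also the lowest for H2bc1, the testis H2B gene (5.22 to 7.53 over the 10 arrays), H2bc8 (1.13 to 3.02) and H2bc18 (4.65 to 7.05).

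H2bc4 and H2bc21, both also known as tailed RNA, did not follow the block, and they did not move together. The WT array of slide 1 was 5.35-fold above the WT array of slide 2 for H2bc4. For H2bc21 the WT array of slide 2 was 1.94-fold above. H2bc4 had log2 levels of 5.88 and 5.44 on the WT and KO arrays of slide 1 and of 3.46 and 4.01 on the WT and mixed KO arrays of slide 2. On the 6 KO arrays it was 3.20 and 3.17 (MDS), 3.71, 4.40 and 3.71 (MDS/MPN replicates 1, 2 and 3) and 4.10 (undetermined). As in H1f2, both slide 1 arrays lay above the other 8. H2bc21 had levels of 0.37 on the WT array and 0.13 on the mixed KO array of slide 2, -0.59 and -1.34 on the WT and KO arrays of slide 1, and -1.91, -0.68 and 0.03 as the lowest, median and highest of the 6, all under the WT array of their slide. H2bc6 was well above background on 8 arrays, H2bc22 on 6 and H2bc23 on 2. Their levels were at most 0.32, the mixed KO value of H2bc22.

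All 7 H3 genes were well above background on all 10 arrays, and each had its lowest level on the WT array of slide 1 or on MDS/MPN replicate 2. H3c7 had log2 levels of 4.98 and 4.73 on the WT and mixed KO arrays of slide 2, 2.26 and 3.99 on the WT and KO arrays of slide 1, and 3.25, 4.70 and 5.43 as the lowest, median and highest of the 6 KO arrays. H3c8 had levels of 2.54, 2.62, 0.53 and 3.09 on the same 4 arrays and 1.72, 2.98 and 3.61 over the 6, where 5 of the 6 lay above the WT array. Its level on the WT array of slide 1 was under all the others. Over the 10 arrays the other members spanned 2.07 to 3.83 (H3c1), 3.96 to 6.14 (H3c3), 8.28 to 9.98 (H3c4), 2.26 to 4.88 (H3c11) and 6.17 to 8.34 (H3c13).

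Of the 8 H4 genes, 7 were well above background on all 10 arrays. H4c17 had log2 levels of 3.65 and 3.43 on the WT and mixed KO arrays of slide 2, 1.47 and 3.90 on the WT and KO arrays of slide 1, and 2.78, 3.67 and 4.30 as the lowest, median and highest of the 6 KO arrays. H4c12 had levels of 10.82, 10.42, 9.91 and 11.05 on the same 4 arrays and 9.07, 10.72 and 11.23 over the 6. The WT array of slide 1 was the lowest of the 10 for H4c17 and MDS/MPN replicate 2 for H4c12. H4c9 had levels of 3.53 to 5.61, H4c3 of 4.23 to 6.70, H4c4 of 8.24 to 10.48, H4c11 of 4.82 to 6.99 and H4c14 of 8.80 to 11.04 over the 10 arrays. H4c8, well above background on 8 arrays, had levels of -3.65 to -1.02 and did not share the pattern.

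The second probes of 4 of the 5 genes with several gave the same direction on slide 1. There the KO minus WT log2 difference was 1.52 on the second probe and 0.80 on the first for H2ac15, 0.69 and 1.54 for H4c9, 1.49 and 1.15 for H4c12, and 2.11 and 1.15 for H4c14. For H2ac19 the probes disagreed, with -0.85 on the second and 0.95 on the first. The second H2ac19 probe had levels of 1.51 to 3.68, highest on the WT array of slide 1.

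On slide 1, the KO array had higher levels of 35 of 40 tested histone genes than the WT array. Each group is 1 array, so the values have no replicate check and no p-value. At least 2-fold higher were 25 of the 40, where 12.8% of 22421 features were, and at least 2-fold lower was 1, H1f2, where 12.1% were. The median log2 difference of the 40 was 1.35, against 0.23 over all features. It stayed between 0.96 and 1.35 under the other 3 scalings and with none, always with 35 of 40 above 0.

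By family, the median KO minus WT log2 difference on slide 1 was 1.87 for H1 (3 of 4 above 0), 0.95 for H2A (12 of 12), 1.20 for H2B (6 of 9), 1.73 for H3 (7 of 7) and 1.46 for H4 (7 of 8). The KO array was 5.88-fold above WT for H3c8, 5.40-fold for H4c17, 5.25-fold for H1f5, 4.49-fold for H2ac21 and 4.33-fold for H1f1. Among the bright H2A probes the KO array was 1.61-fold (H2ac11) to 1.93-fold (H2ac19 and H2ac22) above WT. The 5 members with a negative difference were H1f2 (-1.04), H2bc6 (-0.76), H2bc21 (-0.75), H2bc4 (-0.45) and H4c8 (-0.22). Neutrophil markers (10 genes) also differed between these arrays, with a summed level of 8.35 in WT and 11.4 in KO. The sums were closer for LSK markers, 8.85 and 8.93, and erythroid markers, 7.25 and 6.96, but a sum follows the brightest genes. The median level was 4.50 in WT and 2.98 in KO for LSK markers, and -1.84 and 1.42 for erythroid markers. Both lists held genes of either direction, with KO minus WT log2 differences of -3.93 for Procr and 0.63 for Ly6a, and of 5.68 for Car1 and -1.42 for Car2. The neutrophil list did not move as 1 either. Its KO minus WT log2 difference was 3.66 for Mpo, 3.46 for Elane and 3.44 for Ctsg. It was -2.08 for Ltf, -0.37 for Ngp and -0.34 for S100a9. S100a8, Camp, Prtn3 and Lcn2 lay between 0.22 and 2.01. The part of these markers in the histone difference was not tested. Family medians stayed above 0 under each of the other 3 scalings and with none, with the smallest at 0.51 for H2A after normexp and quantile normalization.

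The WT arrays differed between the slides by about as much. WT on slide 2 was above WT on slide 1 for 35 of 40 genes, with a median log2 difference of 1.18, and at least 2-fold above for 23, where 9.87% of 22038 features were. At least 2-fold below were 2, H1f2 and H2bc4, where 14.1% were. The H3 genes differed by a median of 1.75 and the H2A genes by 0.27. H2ac6 had the largest difference, 3.75 on the log2 scale, with WT on slide 2 13.4-fold above WT on slide 1. Cell type markers differed between these arrays too. WT on slide 1 was 8.93-fold higher for Slamf1 and 4.55-fold for Procr, both LSK markers, and 9.09-fold and 10.5-fold higher for the neutrophil genes S100a8 and S100a9. WT on slide 2 was 5.70-fold higher for Mpo, of granulocyte precursors, and the erythroid gene Klf1 was well above background on it but not on WT of slide 1. These 6 genes were chosen after their values were seen. Over whole lists the summed level on slides 2 and 1 was 9.11 and 8.85 for LSK markers (11 and 12 of 12 well above background), 10.1 and 8.35 for neutrophil markers (8 and 10 of 10), and 6.49 and 7.25 for erythroid markers (8 of 12 on both). The list medians went the other way from these sums. They were 3.59 and 4.50 for LSK markers, 1.58 and 3.56 for neutrophil markers and -0.42 and -1.84 for erythroid markers on slides 2 and 1. The part of these lists in the histone difference was not tested. Slide and time label cannot be told apart here. Genotype on slide 1 rests on this same WT array.

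On slide 2, the 6 KO arrays of single mice were compared with the WT array at 9-12 months, which asks how loss of Ezh2 goes with these genes in mice with disease. None of the 40 tested members passed the test (0 of 40), where 0.587% of 19595 features did, by limma at an adjusted p of 0.05. Of the 40, 1, H2ac6, had an unadjusted p under 0.05. The differences had a median of -0.27 on the log2 scale, with 5 of 40 above 0, against -0.01 over all features. Each family had 1 member above 0: H1f4, H2ac21, H2bc4, H3c8 and H4c9.

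The 6 KO arrays did not agree among themselves. Their median log2 difference from the WT array over the 40 genes was -0.45 and -0.61 on the MDS arrays, with 1 gene above WT on each, and 0.25, -1.52 and 0.31 on MDS/MPN replicates 1, 2 and 3, with 31, 2 and 31 genes above WT. On the undetermined array it was 0.38, with 34 above. The SD over the 6 was 0.74, larger than the median difference itself. Erythroid markers, in progenitors a sign of red cell precursors, had a summed level of 6.49 on the WT array, 6.34 on MDS/MPN replicate 2 and 8.24 to 9.23 on the other 5; their part in these differences was not tested. Without MDS/MPN replicate 2 the median was -0.04, with 12 of 40 above 0. The MDS and the MDS/MPN arrays lie on different lines of the slide, and with the 2 MDS arrays alone, on the line of the WT array, the median was -0.58, with 1 above 0. The split among the 6 depends on the scaling. After quantile normalization, over the 37 genes above background throughout, the median difference was -0.50 and -0.56 on the MDS arrays. It was -0.10, -0.89 and -0.03 on MDS/MPN replicates 1, 2 and 3 and -0.02 on the undetermined array. Above WT were then 10, 2 and 13 of the 37 on these replicates and 14 on the undetermined array. With no scaling these counts were 6, 12, 20 and 20.

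H2ac6 had the largest KO minus WT log2 difference, -1.89 ± 0.80 (SE, 6 KO arrays and 1 WT array), with a limma p of 0.042 and an adjusted p of 0.978. The next differences were -1.22 ± 0.69 for H2bc21, -0.77 ± 0.75 for H4c8 (well above background on 5 of 6 KO arrays), -0.74 ± 0.62 for H2ac8, -0.59 ± 0.44 for H2bc6 (4 of 6) and -0.58 ± 0.47 for H2bc22 (2 of 6). On the other side were 0.37 ± 0.68 for H3c8, 0.25 ± 0.53 for H2bc4, 0.23 ± 1.08 for H2ac21, 0.20 ± 0.92 for H1f4 and 0.17 ± 0.70 for H4c9. The 5 positive differences were each smaller than their SE, and that of H4c9 turned to -0.04 after quantile normalization. The WT array was above all 6 KO arrays for 4 of the 40, H2ac6, H2bc6, H2bc21 and H2bc22, where 13.9% of features had that pattern. H2bc6 and H2bc22 were not well above background on MDS/MPN replicate 1. The lowest level well above background there, -1.51, was above their WT levels, -1.65 and -1.95. Their order on that array thus cannot be decided. The WT array was below all 6 for 0, where 9.29% of features were.

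**Figure D3:**
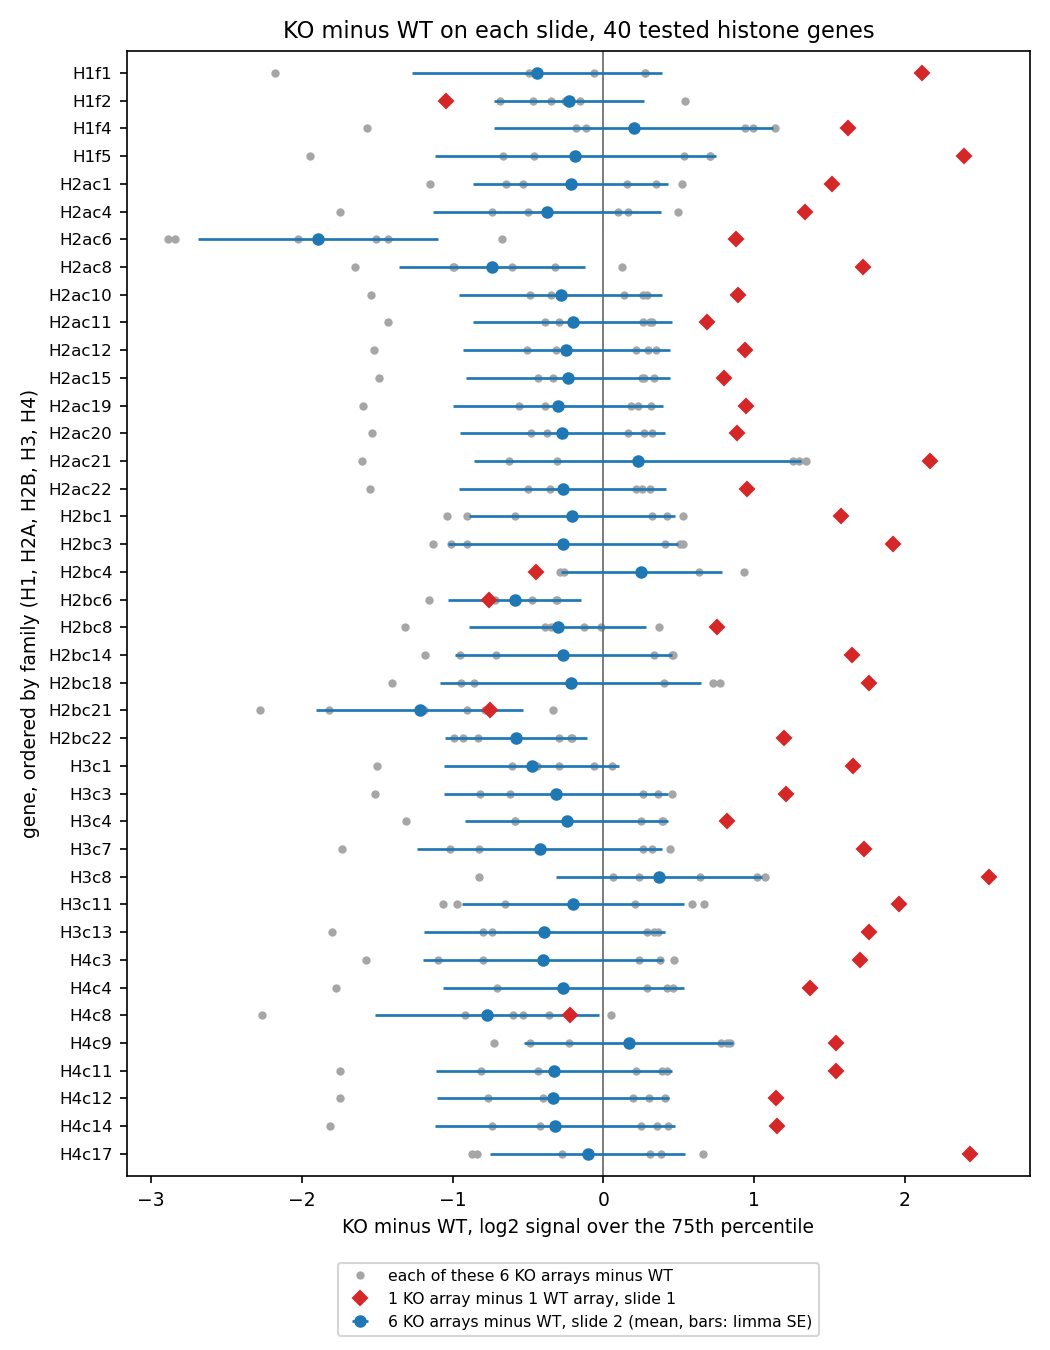
KO minus WT (x axis, log2 level over the 75th percentile) for the 40 tested histone genes, ordered by family; blue points with bars are the mean and limma SE of 6 KO arrays against the WT array of slide 2, grey points each of the 6, and red diamonds the single pair of slide 1. The diamonds lie above 0 for 35 genes, and the blue points below 0 for 35.

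Which WT array is the control decides the sign. With the time labels of the value table, the 6 KO arrays stand against the WT array of slide 1, and the median log2 difference of the 40 became 1.003, with 29 above 0. Under these labels 1 member passed the test, where 0.546% of 21786 features did: H1f2, at -3.15 ± 0.51 (limma adjusted p = 0.040). H2bc4 was next at -2.17 ± 0.54 (adjusted p = 0.127). The same 6 arrays with the WT array of their own slide gave -0.23 ± 0.50 for H1f2. This setting sets slide 2 against slide 1, so slide and genotype cannot be told apart in it.

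The mixed KO array was close to the WT array of the same slide. Their median log2 difference over 40 genes was -0.09, with 8 above 0. The H4 genes were the lowest, at a median of -0.41 with 0 of 8 above 0, H4c3 among them at -0.64. At least 2-fold lower was 1 of 41, H4c8, where 4.35% of 19580 features were, and it was not well above background on the mixed array, which gives a WT level at least 2.03-fold higher. At least 2-fold higher were 2, H2bc22 and H2bc23, where 4.51% were. H2bc22 had levels of 0.32 and -1.95 on the mixed and WT arrays. H2bc23 was not well above background on the WT array, which gives at least 1.38-fold.

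Between the diseases, 3 MDS/MPN arrays were compared with 2 MDS arrays, all on slide 2. The MDS arrays lay on line 1 of the slide and the MDS/MPN arrays on line 2, so disease and line cannot be told apart. None of the 40 members passed the test (0 of 40), as 0% of 20724 features did, and 1, H2ac6, had an unadjusted p under 0.05. The median log2 difference was 0.17, with 32 of 40 above 0. It was 0.79, with 35 above 0, without MDS/MPN replicate 2, -0.06 without replicate 1 and -0.15 without replicate 3, whose label adds CMMoL. In most members the SD among the MDS/MPN arrays was larger than the difference of the means. H1f5 had a mean of 7.70 ± 1.49 (SD, n = 3) in MDS/MPN and of 7.38 in MDS, and H4c12 of 10.41 ± 1.15 and 10.24. H2bc3, with the largest positive difference, had an SD of 0.92 against a difference of 0.89. The only exceptions were H2ac6, H2bc4, H2bc21, H4c9 and H1f2. On the second H4c9 probe, MDS/MPN replicate 2, at 2.90, was below both MDS arrays, at 3.94 and 3.91.

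H2ac6 had the largest MDS/MPN minus MDS log2 difference, -1.12 ± 0.40 (SE, limma adjusted p = 0.992), and H2bc21 had -0.91 ± 0.54. H4c8 (-0.49), H2bc8 (-0.43), H2bc6 (-0.29) and H2ac8 (-0.19) had smaller negative differences, each under its SE. The positive differences were 0.89 ± 0.58 for H2bc3, 0.85 ± 0.52 for H4c9, 0.83 ± 0.70 for H2bc18, 0.80 ± 0.96 for H2ac21, 0.75 ± 0.58 for H3c11 and 0.75 ± 0.37 for H2bc4. Each MDS/MPN array was above each MDS array for 2 members, H1f2 and H2bc4, where 7.74% of features were. Each was below for 1, H2ac6, where 12% were. The summed level of LSK markers moved with this split. It was at most 8.19 on the 3 MDS/MPN arrays and at least 8.95 on the 2 MDS arrays. A sum follows the brightest genes, and the list did not move as 1. The MDS/MPN minus MDS log2 difference was 0.46 for Ly6a, 0.70 for Slamf1, 1.83 for Mecom and -0.07 for Gata2. Slamf1 and Mecom were dim, with levels of at most -0.95 and -1.52 on the 6 KO arrays. The other LSK markers were lower in MDS/MPN, from -0.67 for Hoxa9 to -2.87 for Hlf. The part of LSK markers in this split was not tested.

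The difference between the KO effects of the slides was tested as 1 contrast, where a group of 1 array takes its spread from the groups with several. None of the 40 members passed (0 of 40), as 0% of 23290 features did, and 2 had an unadjusted p under 0.05. The median log2 difference of effects was -1.67, with 3 of 40 above 0, against -0.23 over all features. The largest were H2ac6 (-2.77 ± 1.32), H1f5 (-2.58 ± 1.54), H1f1 (-2.55 ± 1.38), H4c17 (-2.54 ± 1.08), H2ac8 (-2.46 ± 1.04) and H2bc3 (-2.19 ± 1.27). H4c17 and H2ac8 had limma p values of 0.0439 and 0.0425 and adjusted p values of 0.971 and 0.962. The 3 above 0 were H1f2 (0.82 ± 0.85), H2bc4 (0.70 ± 0.90) and H2bc6 (0.17 ± 0.76). With the time labels of the value table the median turned to 1.12.

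All 8 KO arrays against both WT arrays, with slide as a block, does not depend on the time labels, and neither does MDS/MPN against MDS. None of the 40 members passed (0 of 40), as 0% of 22356 features did, and 0 had an unadjusted p under 0.05. The median log2 difference was 0.30, with 35 of 40 above 0. H3c8 had the largest, at 1.14 ± 0.59 (limma adjusted p = 0.954), then H2ac21 (0.90 ± 0.83), H4c17 (0.81 ± 0.59), H1f5 (0.76 ± 0.76), H1f4 (0.70 ± 0.69) and H4c9 (0.65 ± 0.54). The 5 below 0 were H2bc21 (-0.96 ± 0.54), H2ac6 (-0.73 ± 0.79), H4c8 (-0.61 ± 0.55), H2bc6 (-0.56 ± 0.39) and H1f2 (-0.47 ± 0.40). The median was 1.35 without the WT array of slide 2 and -0.26 without either the WT or the KO array of slide 1, each of which takes that slide out of the blocked comparison, so the direction turned with which slide was left.

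Genes that act on or beside histone RNA were read from 5 companion lists: histone mRNA processing (27 genes on the array), histone variants made outside S phase (11), histone chaperones (26), DNA replication (35) and mitosis (25). None of their tested genes passed any of the 4 tests. Slbp, which binds the stem-loop, had log2 levels of 1.70 and 2.17 on the WT and mixed KO arrays of slide 2, 0.76 and 1.57 on the WT and KO arrays of slide 1, and 1.34, 1.78 and 2.14 as the lowest, median and highest of the 6 KO arrays. Like the histone genes, it was lowest on the WT array of slide 1, while MDS/MPN replicate 2, at 1.80, was within the others. Npat was well above background on 2 arrays. H2az1, the H2A.Z variant used at promoters, had levels of 8.55 to 10.16, lowest on MDS/MPN replicate 2.

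On slide 1 the companion lists lay on the same side as the histone genes. The KO minus WT log2 difference had a median of 1.18 for DNA replication (31 of 34 above 0), 1.35 for mitosis (22 of 24), 0.64 for chaperones (21 of 26), 0.50 for mRNA processing (25 of 27) and 0.67 for the variants (8 of 11). At least 2-fold higher were 20 of 34 replication genes and 17 of 24 mitosis genes, where 12.8% of features were. Ccne1, the cyclin E that activates NPAT, had levels of 1.05 (WT) and 4.32 (KO), and Rrm2, a subunit of the enzyme that makes deoxynucleotides, of 3.60 and 5.62.

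For the 6 KO arrays against WT on slide 2 the replication genes had a median log2 difference of 0.18 (27 of 34 above 0) and the mitosis genes of 0.14 (18 of 24), where the histone genes had -0.27 (5 of 40). In that comparison the largest differences were 1.55 ± 1.08 for Ccne1, 1.04 ± 0.77 for Orc1, 0.70 ± 0.62 for Cdt1 and 0.61 ± 0.65 for Rrm2, all of replication origins or nucleotide supply apart from the cyclin. Among mitosis genes they were 0.94 ± 0.71 for Plk1, 0.92 ± 1.31 for Cenpe, 0.56 ± 0.60 for Ube2c and 0.56 ± 0.70 for Cdc20. Among mRNA processing genes they were 0.91 ± 0.77 for Lsm11, a part of the U7 particle that cuts histone transcripts, 0.89 ± 0.58 for Srrt, 0.65 ± 0.45 for Tent4a and 0.60 ± 0.54 for Cpsf4. Chaperones gave 0.69 ± 0.60 for Hjurp, -0.66 ± 0.56 for Asf1a, 0.61 ± 0.65 for Asf1b and 0.53 ± 0.46 for Hira.

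Among the variants, H1f0, the linker histone of cells that have stopped dividing, had the largest difference, -2.22 ± 0.73 on the log2 scale (limma adjusted p = 0.535). It was well above background on 6 of 10 arrays and on 3 of the 6 KO arrays. Its level was -0.10 on the WT array and -1.34 on the mixed KO array of slide 2, -2.76 and -3.18 on the WT and KO arrays of slide 1, and at most -1.78 on the 6. Cenpa, the centromere H3, had 0.92 ± 0.74, H3f3a -0.48 ± 0.44 and Macroh2a1 -0.32 ± 0.46.

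In MDS/MPN against MDS the median log2 difference was 0.65 for mitosis (24 of 24 above 0), 0.45 for replication (32 of 34), 0.27 for mRNA processing (22 of 26), 0.22 for chaperones (20 of 26) and 0.12 for the variants (7 of 11). For the difference between the slides' KO effects it was -1.12 for mitosis, -0.92 for replication, -0.54 for chaperones, -0.37 for mRNA processing and -0.74 for the variants. For all KO arrays against both WT arrays it was 0.62 for mitosis (24 of 24 above 0), 0.54 for replication (32 of 34), 0.26 for chaperones, 0.29 for mRNA processing and 0.20 for the variants. Over all features these medians were -0.02, -0.23 and 0.03.

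After scaling to the 75th percentile, histone and mitosis genes parted on MDS/MPN replicate 2. The mitosis list (22 genes above background throughout) had a median level of 4.21 there, its highest, and of 2.42 to 3.47 on the other 9 arrays, where the histone genes had their lowest, 4.82. Mki67, the marker of cycling cells, had a log2 level of 6.29 on that array and of 0.95 to 2.70 on the others. The replication list lay at 4.59 there, within its range of 4.33 to 5.66. Of 12 erythroid markers 8 were well above background on this array, with a summed level of 6.34, and 10 to 12 on the other 5 KO arrays of single mice, with 8.24 to 9.23. The part of these differences, and of the high 75th percentile, in the low histone levels was not tested. That the histone genes were lowest on this array depends on the scaling. After quantile normalization their median log2 difference from the WT array of slide 2 was -0.89 on it. On the WT array of slide 1 it was -1.43. With no scaling these were -0.21 and -1.75.

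**Figure D4:**
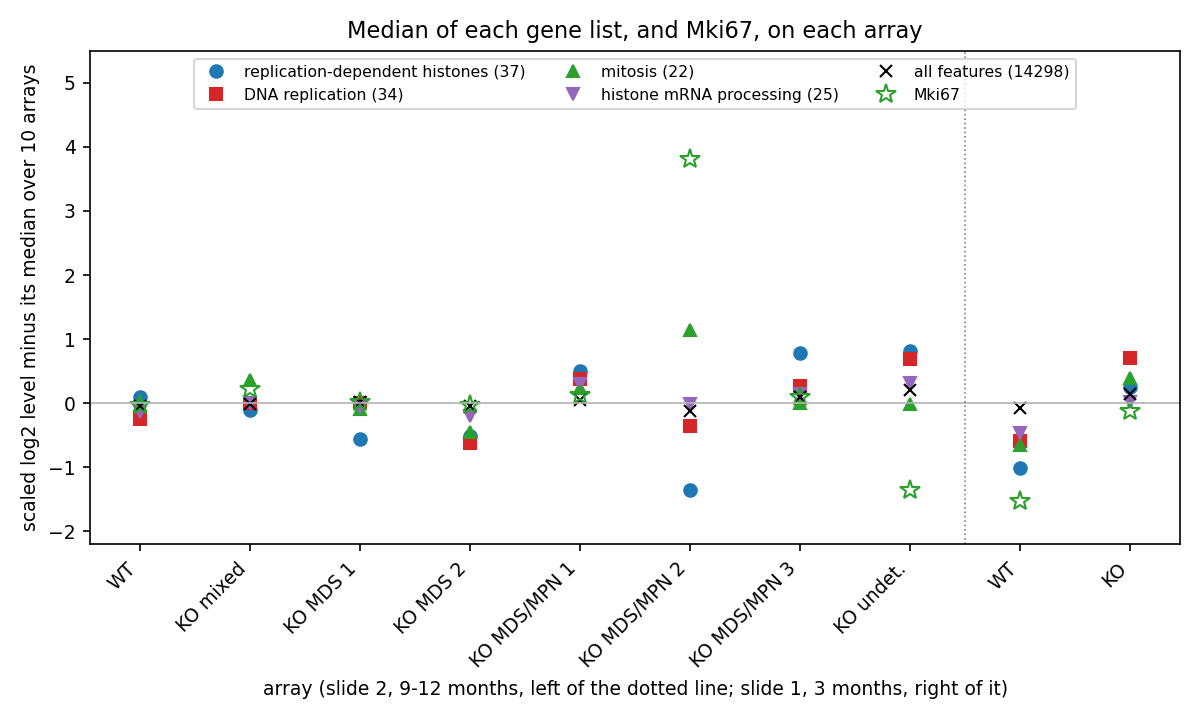
Median level of each gene list, and the level of Mki67, minus its own median over the 10 arrays (y axis, log2 after scaling), by array. On MDS/MPN replicate 2 the histone genes are at their lowest while the mitosis genes and Mki67 are at their highest; on the WT array of slide 1 the 4 gene lists plotted and Mki67 are below their own medians.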

How the data were processed

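RNA (0.02 µg, Cy3) from 10 samples was read on 10 Agilent one-colour arrays on 2 slides. The deposited scanner files hold background-subtracted, detrended intensity per spot (gProcessedSignal) and flag calls made by Feature Extraction 10.7.1.1, per the file headers; the submitters' processing notes name version 9.1. The deposited value table holds linear ratio values per probe, whose relation to the intensity was found by comparison with the scanner files; no source used here states their scaling. In 4 columns of it the time labels are exchanged between the slides. The log2 values were computed here from the deposited intensity.

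Spots flagged as outliers were left out, spots of a probe averaged, log2 taken and the 75th percentile of each array subtracted. RefSeq accessions named 27656 of 55681 probes, and the brightest probe stood for a gene. A feature was tested when well above background on at least 50% of the arrays of a compared group. limma 3.58.1 under R 4.3.3 gave differences, SE and p-values adjusted over all features (Benjamini-Hochberg, threshold 0.05), in 4 comparisons. Tables and plots used matplotlib 3.10.9, pandas 2.3.3 and numpy 2.4.6 under Python 3.11.15. The number of arrays limits the precision: with 1 array in a group its spread is taken from the others. On simulated data with 100 genes changed by 4 log2 units, the fit recovered 67 for KO against WT on slide 2 (19595 features), 33 for MDS/MPN against MDS (20724) and 90 for all KO against both WT arrays (22356); at 2 log2 units it recovered 16, 1 and 33. Nothing says that the arrays of a group came from separate experiments, so p-values measure the spread between these samples.

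Described one by one are members well above background on all arrays, up to 6 members per direction with the largest difference in each test, any past the threshold, up to 4 genes of each companion list, and Slbp, Npat and H2az1. The members and lists were chosen with earlier results of these data known. Other scalings, filters, probe rules, variance models, sample sets and time labels were tried as alternatives.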

Additional observations from a re-analysis of the deposited data

Results flagged for a closer look

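H1f1 had a log2 level of 3.94 on MDS/MPN replicate 2, which stood apart from the other 5 KO arrays of single mice: its gap to the nearest was 0.687 of the range of the 6, above the critical 0.625. It was 1 of 40 members examined, and chance alone gives such a gap in about 5% of groups.

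Opposite directions on the slides were seen for H2ac6, with a KO minus WT log2 difference of 0.88 on slide 1 and a mean of -1.89 on slide 2, where each of the 6 KO arrays was below WT. H2bc22 had 1.20 on slide 1 and -0.58 on slide 2, also with each of the 6 values below WT. It was well above background on only 2 of the 6 KO arrays, so its direction on slide 2 is limited by dim signal. Each slide 1 value rests on 1 pair of arrays. The difference itself was -2.77 ± 1.32 for H2ac6 and did not pass limma's test.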

How the results depend on the processing

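Of 959 values recomputed under alternatives, 717 of single genes and 191 of comparisons kept their direction and side of the threshold. The count of features called for KO against WT on slide 2 was 115, and became 247 after quantile normalization, 50 with no filter, 0 with only features above background on every array, 0 with trend and robust variance, 182 with the mixed array, 0 on the first line of the slide, and 0 to 215 leaving out 1 KO array. With the time labels of the value table, 1 member was called, the median was 1.003, and H2ac6 (1.86), H2ac8 (1.53), H2bc22 (0.55) and H2bc4 (-2.17) turned. On the first line H2bc4 (-0.28), H2ac21 (-0.47), H1f4 (-0.15) and H4c9 (-0.48) turned, and H4c9 also after quantile normalization (-0.041) and normexp (-0.034). In MDS/MPN against MDS, leaving out 1 array gave H4c8 differences of -0.79 to 0.075, above 0 without MDS/MPN replicate 1, and H2ac8 differences of -0.53 to 0.14, above 0 without MDS replicate 1 or MDS/MPN replicate 2. For the difference of KO effects, 184 features were called after quantile normalization and 2 with the time labels of the value table, under which the median was 1.12 and H2ac6 (2.04), H1f5 (1.72), H1f1 (1.40), H4c17 (2.29), H2ac8 (1.23), H2bc3 (2.63), H1f2 (-3.50), H2bc4 (-2.72) and H2bc6 (-1.12) turned. For all KO against both WT arrays, 1 feature was called after quantile normalization, 4 with median scaling, 3 from the value table, 2 without the slide block and 0 to 177 leaving out 1 array. The members' median ran from -0.26 to 1.35 leaving out 1 array. H2ac6 ran from -1.65 to 0.88, above 0 without the WT array of slide 2, and was 0.072 without the slide block. H4c17 ran from -0.12 to 2.43 and H1f5 from -0.17 to 2.39, both below 0 without either slide 1 array. The cause was not tested, except that the exchanged labels and left-out arrays change the control itself. The scalings of the array medians in the report were chosen after seeing the data. No paired analysis was possible because groups of 1 array share no replicate numbers that pair samples. Dim members, H1f3 and H2bc23 above all, are limited by signal over background.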
